A study of Homo sapiens with 2 samples.

Results

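RNA polymerases I, II and III and the Mediator complex were followed through the mRNAs of their subunits in H9 cells, a human cell line that came from a T cell lymphoma and whose label gives a wild-type genotype. The genes were taken by symbol, as those beginning with POLR1, POLR2 or POLR3 and a letter or with MED and a number, together with CCNC, CDK8 and CDK19. This gave 64 of the 19220 gene symbols in the table, of which 5 belonged to polymerase I, 15 to polymerase II, 10 to polymerase III and 34 to Mediator. One of the 34, MED14OS, is a transcript antisense to MED14 and not a subunit. Subunits whose symbol in this table follows another pattern, such as CD3EAP, TWISTNB and ZNRD1 of polymerase I and CRCP of polymerase III, were kept among the other transcription factors. The groups were cells exposed for 6 h to 0.05 µM doxorubicin, a DNA-intercalating anthracycline and poison of topoisomerase II, and untreated cells. Poly(A)-selected RNA was sequenced from 1 library of each, so no value has a replicate, no test between conditions exists and the intervals of counts, ratios and shares cover counting error only.

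The nuclear polymerases divide the genome between them, polymerase I transcribing the large ribosomal RNA precursor, polymerase II the mRNAs and polymerase III the transfer RNAs, the small ribosomal RNA and other short RNAs. All are built around a pair of large subunits that form the active centre, on an assembly platform with a set of small subunits that all of them share. Mediator is the coactivator that bridges DNA-bound activators and polymerase II at promoters. Its head, middle and tail are held by the MED14 backbone, and a separable kinase module of CDK8 or CDK19, cyclin C, MED12 and MED13 regulates its contact with the polymerase. Intercalating drugs of the anthracycline class are known to disturb transcription by polymerases I and II.

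The library of treated cells held 50174434 counts and that of untreated cells 33730703. Of 13 T cell markers, 10 had at least 100 counts over both libraries, among them CD3E with 8864 counts in treated and 7149 in untreated cells and LCK with 10636 in treated and 4880 in untreated cells, while CD2 had 2 in treated and 0 in untreated cells. Of the B cell markers, CD79A had 6628 counts in treated and 6007 in untreated cells and CD79B had 1065 in treated and 755 in untreated cells. All 5 myeloid markers stayed at 7 counts or fewer in either library. Of the pluripotency markers only POU5F1, with 110 counts in treated and 105 in untreated cells, passed that minimum. Of the epithelial and fibroblast markers EPCAM, with 3236 counts in treated and 2591 in untreated cells, CDH1 and COL1A1 passed it.

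Of the 64 genes, 62 passed the minimum of 100 counts summed over both libraries and are called measured. Levels are given in CPM, the count set relative to the effective size of its library, and the log2 ratio is that of treated over untreated cells. The size rule, used in place of a test, asked for a difference of 1.5-fold or more and a 95% counting interval wholly on one side of equality; genes that met it are called higher or lower. By this rule 6 of the 62 were higher and 5 lower, and 51 were neither. In RNA pooled over many cells, a change in the share of cells and a change in RNA per cell cannot be told apart. Over all 11244 measured genes, 7.26% were higher and 9.57% lower. Scaled by total counts instead, which shifts every ratio up by 0.07, MED12 joined to make 7 higher with 5 lower, against 9.64% higher and 7.58% lower over all measured genes. The median log2 ratio of the 62 was -0.14 (-0.26 to 0.14 over members), against 0.007 over all measured genes. Below 0 lay 38 of the 62, and 5544 of all 11244 measured genes. Transcript length went with these ratios throughout, so values after adjustment for length are given as well.

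Set per kilobase of transcript, which allows levels to be compared between genes, the subunits of one complex differed far more from each other than between the libraries. In polymerase II, POLR2E was the most abundant at 85.0 CPM per kb in treated and 107 in untreated cells, and POLR2G followed at 81.2 in treated and 97.5 in untreated cells. The largest subunit POLR2A stood at 36.3 CPM per kb in treated and 23.5 in untreated cells and POLR2B at 30.6 in treated and 24.3 in untreated cells. In polymerase I, POLR1D led at 61.6 CPM per kb in treated and 73.4 in untreated cells, and POLR1A was the lowest at 7.78 in treated and 3.84 in untreated cells. In polymerase III, POLR3C stood at 33.9 CPM per kb in treated and 27.1 in untreated cells and POLR3GL at 33.3 in treated and 45.3 in untreated cells. The large subunits were at the bottom, POLR3A at 6.85 CPM per kb in treated and 4.32 in untreated cells and POLR3B at 5.98 in treated and 5.15 in untreated cells. POLR3A and POLR3B were thus neighbours in that order in treated cells and changed places in untreated cells. Mediator ran from MED24, at 54.9 CPM per kb in treated and 42.0 in untreated cells, and MED25, at 48.1 in treated and 62.2 in untreated cells, down to MED31, at 1.64 in treated and 1.98 in untreated cells. These levels depend on the annotated transcript, which is 10868 bases for MED28 and 12749 for POLR1A, and a shorter form in use would raise them.

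**Figure D1:**
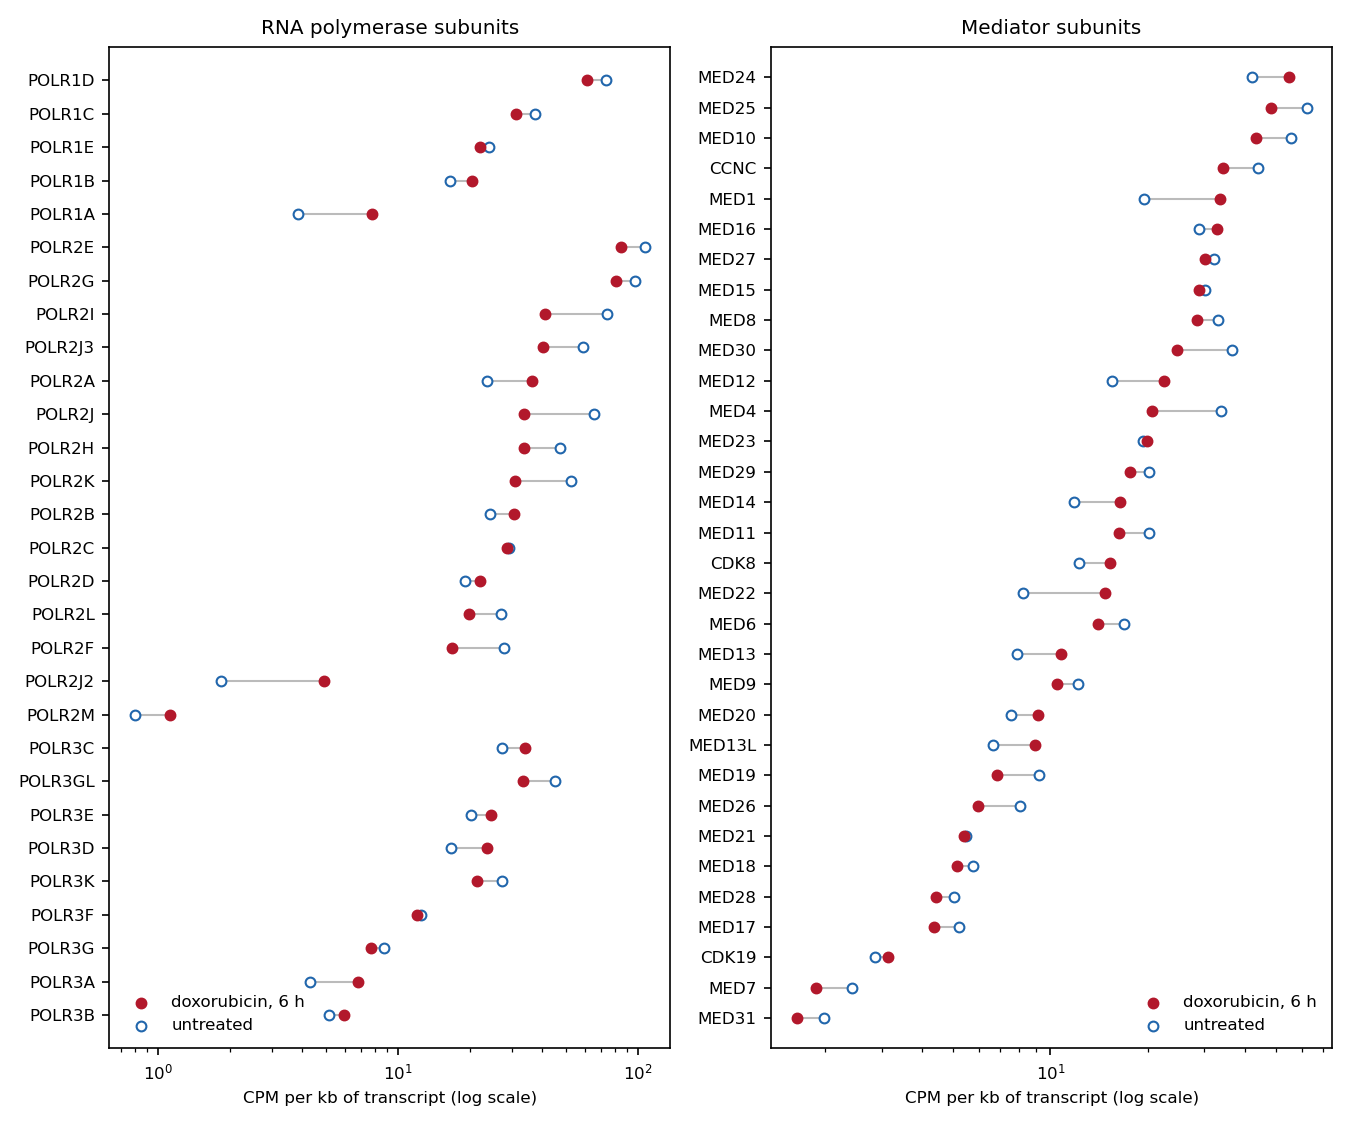
Levels of 61 of the 62 measured genes in CPM per kb of transcript on a log axis, filled points for cells with doxorubicin for 6 h and open points for untreated cells, 1 library each, ordered within each complex by the level in treated cells. POLR2E lies at the top of polymerase II at 85.0 in treated and 107 in untreated cells, while POLR3A and POLR3B lie at the foot of polymerase III, and most filled and open points of a gene lie closer together than the genes do.

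The large catalytic subunits had ratios above 0 in all 3 polymerases, and the largest subunit of each was past the size rule. POLR1A, the largest subunit of polymerase I, had 5098 counts, or 99.2 CPM, in treated cells and 1611 counts, or 48.9 CPM, in untreated cells. That is 2.03-fold higher (1.92 to 2.15), and 98.9% of measured genes had an equal or lower ratio. POLR2A, the largest subunit of polymerase II, whose C-terminal repeats are phosphorylated during the transcription cycle, had 12599 counts (245 CPM) in treated and 5227 (159 CPM) in untreated cells. It was 1.55-fold higher (0.58 to 0.68 on the log2 scale). POLR3A, the largest subunit of polymerase III, had 2337 counts (45.5 CPM) in treated and 944 (28.7 CPM) in untreated cells and was 1.59-fold higher (1.47 to 1.71). The second-largest subunits lay above 0 but inside the size limit. POLR1B had 5269 counts (103 CPM) in treated and 2745 (83.3 CPM) in untreated cells, a log2 ratio of 0.30 (0.23 to 0.37). POLR2B had 6027 counts (117 CPM) in treated and 3074 (93.3 CPM) in untreated cells, at 0.33 (0.27 to 0.39). POLR3B had 1312 counts in treated and 725 in untreated cells, at 0.21 (0.08 to 0.35). Together these 6 genes had a median log2 ratio of 0.48, and the other 24 polymerase genes one of -0.26, with 18 of the 24 below 0, among them POLR2C and POLR3F, which turned above 0 under total-count scaling. The transcripts of the 6 were also the longer ones, with a median of 5850 bases against 1947.

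Adjusted for transcript length, the log2 ratios of POLR1A, POLR2A and POLR3A were 0.63, 0.37 and 0.42, and POLR1A alone of them remained past the size limit. Those of POLR1B, POLR2B and POLR3B were 0.12, 0.26 and 0.10, and the median of the 6 was 0.31, against 0.03 for the other 24 polymerase genes. With coding length and GC content added, the median of the large subunits was 0.18 over 5 genes, without POLR2A, against 0.11 for the other 24. Adjusted for coding length alone they were 0.08, over the same 5, and 0.11, in the reverse order. As POLR2A is missing from these 2 adjustments, their medians are not of the same 6 genes, and the order with POLR2A is not known. With coding length and GC content also in the adjustment POLR1A was at 0.50 and POLR3A at 0.26, both inside the limit. POLR2A had no coding length there, because its full transcript is annotated without one.

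For 5 of the genes past the rule, the 250 bases before the start of the gene are shown, as RefSeq gives them for GRCh38.p14, so that the promoters of 4 higher subunits can be set beside that of MED4, which was lower. Capitals mark matches to any of 6 motifs searched on both strands: the TATA box motif TATAAA, the NF-Y motif CCAAT, the Sp1 motif GGGCGG, the E-box CACGTG, the ETS motif CCGGAA and the YY1 motif AAGATGG. The positions are POLR1A chr2:86105887-86106136 on the minus strand, POLR2A chr17:7484116-7484365 on the plus strand, POLR3A chr10:78029516-78029765 on the minus strand, MED1 chr17:39451264-39451513 on the minus strand, MED4 chr13:48095105-48095354 on the minus strand.
POLR1A: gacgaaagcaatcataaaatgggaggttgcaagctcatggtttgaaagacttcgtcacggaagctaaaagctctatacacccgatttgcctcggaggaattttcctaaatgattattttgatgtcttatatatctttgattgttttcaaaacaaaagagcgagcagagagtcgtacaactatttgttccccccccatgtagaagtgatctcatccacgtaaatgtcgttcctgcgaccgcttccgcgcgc
POLR2A: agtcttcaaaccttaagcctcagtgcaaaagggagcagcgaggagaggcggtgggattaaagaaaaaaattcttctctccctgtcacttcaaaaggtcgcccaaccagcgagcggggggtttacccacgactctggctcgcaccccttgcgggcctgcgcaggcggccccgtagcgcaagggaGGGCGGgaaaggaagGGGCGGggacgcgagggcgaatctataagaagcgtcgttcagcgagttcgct
POLR3A: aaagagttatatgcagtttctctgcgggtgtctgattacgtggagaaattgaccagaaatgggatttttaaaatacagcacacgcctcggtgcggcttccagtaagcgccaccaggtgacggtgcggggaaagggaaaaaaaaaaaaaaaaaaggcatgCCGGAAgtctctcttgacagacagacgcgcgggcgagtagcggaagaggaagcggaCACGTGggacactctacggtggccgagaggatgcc
MED1: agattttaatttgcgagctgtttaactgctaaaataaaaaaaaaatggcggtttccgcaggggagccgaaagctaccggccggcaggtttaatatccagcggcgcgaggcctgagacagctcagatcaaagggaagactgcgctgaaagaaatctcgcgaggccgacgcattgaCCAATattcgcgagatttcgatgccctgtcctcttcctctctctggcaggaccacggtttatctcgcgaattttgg
MED4: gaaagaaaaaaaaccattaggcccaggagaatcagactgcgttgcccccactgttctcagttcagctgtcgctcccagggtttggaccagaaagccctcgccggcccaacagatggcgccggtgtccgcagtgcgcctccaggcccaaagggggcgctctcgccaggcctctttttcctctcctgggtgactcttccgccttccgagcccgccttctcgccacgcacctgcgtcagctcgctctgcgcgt

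None of these 5 windows held TATAAA. POLR2A held the Sp1 motif 2 times, first 67 bases before the gene's start, POLR3A the E-box at 35 and the ETS motif at 91 bases, and MED1 the NF-Y motif at 76 bases. In POLR1A and MED4 none of the 6 motifs was found, so the 4 higher subunits shown did not share a motif of this set. The other higher genes, MED22 and POLR2J2, and the lower genes besides MED4 were not shown. No matches overlapped in the sequences shown. Over the 47 of 64 genes with a promoter entry, CCGGAA was found in 18 (38.3%), against 14.8% of all 27305 promoters and 27.0% of those of measured genes. GGGCGG was found in 32 (68.1%), against 42.3% of all promoters and 68.1% of those of measured genes. TATAAA was found in 3 (6.38%), against 11.1% of all promoters and 4.90% of those of measured genes, and CCAAT in 14 (29.8%), against 33.0% of all and 35.5% of those of measured genes. CACGTG was found in 4 (8.51%), against 6.49% of all and 9.28% of those of measured genes, and AAGATGG in 3 (6.38%), against 3.77% of all and 3.69% of those of measured genes. For TATAAA and CACGTG the members thus lay on opposite sides of the 2 backgrounds. A gene on the opposite strand started within 1000 bases upstream of 15 of the 47 genes (31.9%), against 16.6% of all promoters and 24.99% of those of measured genes. PTCD3 starts 349 bases from POLR1A and ZBTB4 starts 117 bases from POLR2A in this way.

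Of the 5 measured genes with a POLR1 symbol, 1 was higher (POLR1A), 0 were lower and 4 were neither. Polymerase I subunits under other symbols, some of them lower, are given below with the factors. POLR1E, the counterpart of a yeast subunit that aids initiation and elongation, had 2521 counts (49.1 CPM) in treated and 1757 (53.3 CPM) in untreated cells, a log2 ratio of -0.12 (-0.21 to -0.03). POLR1C and POLR1D form the assembly platform and serve in polymerase III as well. POLR1C had 3132 counts (61.0 CPM) in treated and 2413 (73.2 CPM) in untreated cells, at -0.26 (-0.34 to -0.19). POLR1D had 6438 counts (125 CPM) in treated and 4924 (149 CPM) in untreated cells, at -0.25 (-0.31 to -0.20). Both platform genes lay slightly below 0 and close to each other, while the catalytic pair of the same enzyme lay above. The ratios of the 5 genes followed the order of their transcript lengths, with the median at -0.12 and a range from -0.26 to 1.02. After adjustment for transcript length the median was 0.02 and POLR1B, POLR1C, POLR1D and POLR1E lay between -0.08 and 0.12, with POLR1A apart at 0.63. Among the other polymerase I genes and factors, TAF1A, of the promoter selectivity factor SL1, was 1.51-fold higher (1.34 to 1.72) and stood at a log2 ratio of 0.79 after adjustment for transcript length. CD3EAP, which encodes another polymerase I subunit, was 1.72-fold lower (1.51 to 1.95) with 460 counts in treated and 507 in untreated cells, and stood at -0.81 after adjustment for transcript length. ZNRD1, also a polymerase I subunit, was 1.56-fold lower (1.45 to 1.68) and stood at -0.03 after that adjustment. The subunit gene TWISTNB was at 0.03 (-0.08 to 0.14). Of the 10 measured genes of that list 1 was higher and 2 were lower, against 7.26% higher and 9.57% lower over all measured genes.

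Polymerase II had 2 of 15 genes higher and 4 lower, and 9 were neither, against 7.26% higher and 9.57% lower over all measured genes. The median log2 ratio was -0.33 (-0.72 to 0.33 over members). The 4 lower genes all encode small subunits. POLR2J, of the assembly platform, had 1613 counts (31.4 CPM) in treated and 2017 (61.2 CPM) in untreated cells and was 1.95-fold lower (1.83 to 2.08). POLR2I, a small zinc-binding subunit that bears on fidelity, had 1917 counts (37.3 CPM) in treated and 2232 (67.7 CPM) in untreated cells and was 1.82-fold lower (1.71 to 1.93). POLR2K and POLR2F, which all 3 polymerases share, were 1.72-fold (1.61 to 1.84) and 1.65-fold (1.55 to 1.76) lower. POLR2K had 1574 counts (30.6 CPM) in treated and 1738 (52.8 CPM) in untreated cells, and POLR2F had 1826 (35.5 CPM) in treated and 1930 (58.6 CPM) in untreated cells. In all 4 the treated library held fewer counts although it was the deeper one, which among the 64 genes held for these 4 and MED4.

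The 3 remaining shared subunits also lay below 0. POLR2H was at -0.50 (-0.57 to -0.43), POLR2L at -0.44 (-0.58 to -0.30) and POLR2E at -0.33 (-0.37 to -0.29). All 5 shared subunits were thus below 0 with intervals that excluded it, 2 of them past the size rule. Of all 11244 measured genes, 5544 were below 0, and intervals of counting error only are narrow at counts like these. POLR2G, of the stalk that holds the emerging RNA, was at -0.26 (-0.34 to -0.19), whereas its stalk partner POLR2D was at 0.21 (0.15 to 0.28). POLR2C, the platform partner of POLR2J, was at -0.02 (-0.11 to 0.06). POLR2M, which binds polymerase II and makes it dependent on Mediator, had 242 counts in treated and 111 in untreated cells, at 0.48 (0.15 to 0.82). Except for POLR2F, the lower genes have short transcripts of 913 to 998 bases. After adjustment for transcript length, POLR2J was at -0.39, POLR2I at -0.28, POLR2K at -0.24 and POLR2F at -0.56, and none was past the size limit. The adjusted median of polymerase II was 0.15 (-0.28 to 0.37), of the opposite sign to the unadjusted one. It includes the copies POLR2J2 at 2.43 and POLR2J3 at 0.48, and POLR2M at 0.38. With these left out it would lie between POLR2K at -0.24 and POLR2D at 0.04, so the change of sign depends on them. The adjusted median of the 5 shared subunits was -0.26, with POLR2L at 0.16.

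Some of these values are uncertain because of shared sequence. POLR2I has 45.9% of its exons overlapped by OVOL3 or TBCB, and POLR2M 33.0% by GCOM1. POLR2J has 33.3% of its 50-base stretches in common with its copies POLR2J2 and POLR2J3, whose own are 100% shared. POLR2J2 was counted as higher on 88 counts (1.71 CPM) in treated and 21 (0.637 CPM) in untreated cells, 2.64-fold (1.65 to 4.56), with a log2 ratio of 2.43 after adjustment for transcript length. POLR2J3 had 723 counts (14.1 CPM) in treated and 678 (20.6 CPM) in untreated cells, at -0.55 (-0.70 to -0.39). The sources used here do not state how reads were split between these copies. Summed over POLR2J, POLR2J2 and POLR2J3, which does not depend on that split, the counts were 2424 in treated and 2716 in untreated cells. This was 1.75-fold lower with a log2 interval from -0.88 to -0.73. These genes also share stretches with AC105052.3, which is outside the sum, so the sum still depends on reads assigned there or dropped. The adjusted values of POLR2J2 and POLR2J3 rest on annotated transcripts of 348 bases, which hold little beyond the coding sequence.

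Polymerase III had 1 of 10 genes higher (POLR3A), 0 lower and 9 that were neither, against 7.26% higher and 9.57% lower over all measured genes. The median log2 ratio was 0.08 (-0.33 to 0.50). POLR3D and POLR3E form a pair that resembles the initiation factor TFIIF. POLR3D had 2334 counts (45.4 CPM) in treated and 1056 (32.1 CPM) in untreated cells, at 0.50 (0.40 to 0.61), and POLR3E had 4628 in treated and 2468 in untreated cells, at 0.27 (0.20 to 0.34). Of the trimer that opens the promoter, POLR3C was at 0.33 (0.24 to 0.41) and POLR3F at -0.05 (-0.17 to 0.07). Its other position is filled by POLR3G or POLR3GL, with 1310 counts (25.5 CPM) in treated and 950 (28.8 CPM) in untreated cells for POLR3G and 1993 (38.8 CPM) in treated and 1739 (52.8 CPM) in untreated cells for POLR3GL. POLR3GL was at -0.44 (-0.54 to -0.35), while another gene covers 32.8% of its exonic bases, and POLR3G at -0.18 (-0.30 to -0.06). POLR3K, which cleaves RNA and aids termination, had 1535 counts (29.9 CPM) in treated and 1241 (37.7 CPM) in untreated cells, at -0.33 (-0.44 to -0.22). After adjustment for transcript length the median was 0.07 (-0.20 to 0.55). POLR3D was then past the size limit at 0.71 and POLR3C stood at 0.55, while POLR3A was at 0.42. POLR3D was at 0.57, inside the limit, with coding length and GC content added.

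**Figure D2:**
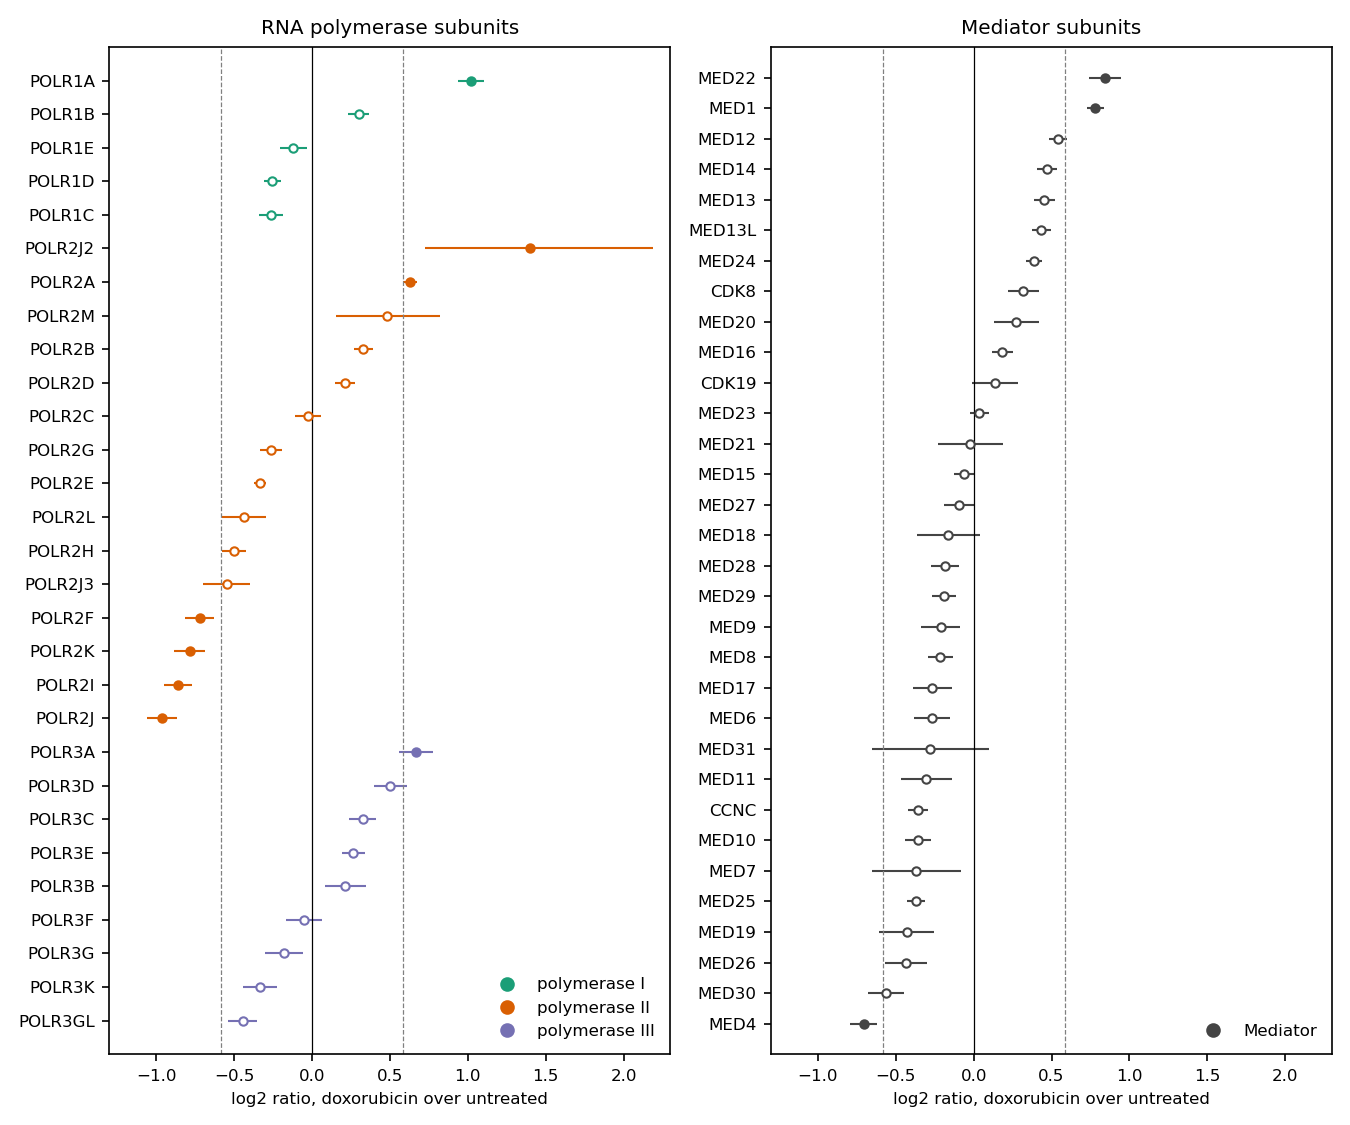
Log2 ratios of doxorubicin-treated over untreated cells, 1 library each, for 61 of the 62 measured genes, with polymerase genes on the left and Mediator genes on the right. Bars are 95% counting intervals, dashed lines mark 1.5-fold, and filled points are genes past the size rule, which run from POLR2J at -0.96 to POLR2J2 at 1.40.

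Mediator had 2 of 32 measured genes higher and 1 lower, and 29 were neither, against 7.26% higher and 9.57% lower over all measured genes. The median log2 ratio was -0.17 (-0.28 to 0.18). MED22, a small subunit of the head, had 2933 counts (57.1 CPM) in treated and 1050 (31.9 CPM) in untreated cells and was 1.79-fold higher (1.67 to 1.92). MED1, the subunit through which nuclear receptors contact Mediator, had 10070 counts (196 CPM) in treated and 3760 (114 CPM) in untreated cells and was 1.72-fold higher (1.65 to 1.78). MED4, of the middle module, had 2151 counts (41.9 CPM) in treated and 2251 (68.3 CPM) in untreated cells and was 1.63-fold lower (1.54 to 1.73), with 10.1% of its sampled stretches found in other genes. Just inside the limit on the lower side, MED30 had 1247 counts (24.3 CPM) in treated and 1182 (35.9 CPM) in untreated cells and stood at -0.56 (-0.68 to -0.45). After adjustment for transcript length MED22 was at 0.76, MED1 at 0.57 and MED4 at -0.53, and MED22 was at 0.93 and 1.16 under the other adjustments for length. MED22 was thus the 1 Mediator gene past the size limit with and without each adjustment for length. It has no exon overlapped by another protein-coding gene.

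Of the modules with several genes, the kinase module had the highest unadjusted median, at 0.38 over 6 measured genes with 5 of 6 above 0. Under each adjustment for length the head had a higher median than the kinase module. MED12, which activates the kinase, had 7841 counts (153 CPM) in treated and 3463 (105 CPM) in untreated cells, at 0.54 (0.48 to 0.60). CDK8 had 2406 counts (46.8 CPM) in treated and 1237 (37.5 CPM) in untreated cells, at 0.32 (0.22 to 0.42). Its paralog CDK19 had 1009 counts (19.6 CPM) in treated and 589 (17.9 CPM) in untreated cells, at 0.14 (-0.01 to 0.28). MED13, which tethers the module to the core, had 5797 counts (113 CPM) in treated and 2715 (82.4 CPM) in untreated cells, at 0.45 (0.39 to 0.52). Its paralog MED13L had 6750 counts (131 CPM) in treated and 3206 (97.3 CPM) in untreated cells, at 0.43 (0.37 to 0.49). CCNC, the cyclin of both kinases, had 4367 counts (85.0 CPM) in treated and 3586 (109 CPM) in untreated cells and was on the other side at -0.36 (-0.42 to -0.29), with 18.6% of its sampled stretches found in another gene. MED14, the backbone, had 6715 counts (131 CPM) in treated and 3107 (94.3 CPM) in untreated cells, at 0.47 (0.41 to 0.53). The median transcript length in the kinase module was 6521 bases, and after adjustment for transcript length its median was 0.06, with MED13 at 0.09, MED13L at 0.02, CDK8 at 0.32, MED12 at 0.28, CCNC at -0.27 and MED14 at 0.17.

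The head, middle and tail were mixed. In the head, 5 of 7 genes were below 0, with a median of -0.21 that turned to 0.07 after adjustment for transcript length. MED20, at 0.27 (0.13 to 0.42), was on the side of MED22, while MED11, the partner of MED22, was at -0.31 (-0.47 to -0.14) and at 0.32 after that adjustment. In the middle, 8 of 9 genes were below 0, all but MED1, with a median of -0.36 and an adjusted median of -0.08. MED21, at -0.02 (-0.23 to 0.19), is among the 8 and turned above 0 under total-count scaling. MED26, which links Mediator to elongation factors, was at -0.43 (-0.57 to -0.30) and 45.6% of its exonic bases belong to a neighbour as well. MED27, MED28, MED29 and MED30, placed where head meets tail, lay between -0.56 and -0.10. Of the tail, MED24 had 9817 counts (191 CPM) in treated and 4814 (146 CPM) in untreated cells, at 0.39 (0.34 to 0.44), and MED16 was at 0.18 (0.12 to 0.25). MED25, a target of activators, had 5760 counts in treated and 4775 in untreated cells and was at -0.37 (-0.43 to -0.31), and MED23 was at 0.04 (-0.03 to 0.10). Other genes cover 43.6%, 32.4% and 74.2% of the exonic bases of MED17, MED28 and MED31, so their values are uncertain. So are those of MED27 and MED11, with 35.7% and 15.6% of their sampled stretches found in other genes. Below the count minimum, MED12L had 30 counts in treated and 9 in untreated cells, and MED14OS had 44 in treated and 10 in untreated cells, at 1.44 (0.48 to 2.65), with 22.3% of its exons overlapped by MED14, whose reads cannot be told apart from it without strand.

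Shares within paralog pairs do not depend on the scaling between libraries. CDK19 made up 29.5% of CDK8 and CDK19 counts in treated cells (exact interval 28.0 to 31.1) and 32.3% in untreated cells (30.1 to 34.5), which overlap. POLR3G made up 39.7% (38.0 to 41.4) of POLR3G and POLR3GL counts in treated and 35.3% (33.5 to 37.2) in untreated cells, which do not overlap. POLR3G has the longer transcript, with 3285 bases against 1165, and after adjustment for transcript length the log2 ratios were -0.20 for POLR3G and 0.02 for POLR3GL, in the reverse order. With coding length and GC content added they were 0.18 and -0.06. MED13L made up 53.8% (52.9 to 54.7) of MED13 and MED13L counts in treated and 54.1% (52.9 to 55.4) in untreated cells. MED12L was 0.381% (0.257 to 0.544) of its pair with MED12 in treated and 0.259% (0.119 to 0.492) in untreated cells. POLR2J2 made up 5.17% (4.17 to 6.34) of its counts with POLR2J in treated and 1.03% (0.639 to 1.57) in untreated cells, and POLR2J3 made up 31.0% (29.1 to 32.9) of its own in treated and 25.2% (23.5 to 26.8) in untreated cells. The intervals of the libraries thus lay apart for POLR3G and for both POLR2J copies, and overlapped for the kinases, MED13L and MED12L.

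Among the 62 genes, Spearman's rho between ratio and transcript length was 0.64, and between ratio and coding length it was 0.61 over 61 genes. Over 11211 measured genes with a length it was 0.55. It was 0.65 over the 32 Mediator genes, 0.38 over the 15 of polymerase II and 0.47 over the 10 of polymerase III, where coding length gave 0.82. All these points share the same 2 libraries. Measured genes were split by transcript length into 5 bins of nearly equal size. In the shortest bin, up to 1886 bases, the 19 members had a median of -0.36 and the 2227 other genes one of -0.39. In the longest bin, from 5530 bases, the 10 members had a median of 0.50 and the 2231 others one of 0.28, with 4 of the 10 members higher against 18.1% of the others. In the shortest bin 3 of the 19 members were lower, against 30.5% of the others. In the bins between them, from short to long, 15 members were at -0.25 against -0.12, 9 at -0.06 against 0.03 and 9 at 0.21 against 0.14.

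**Figure D3:**
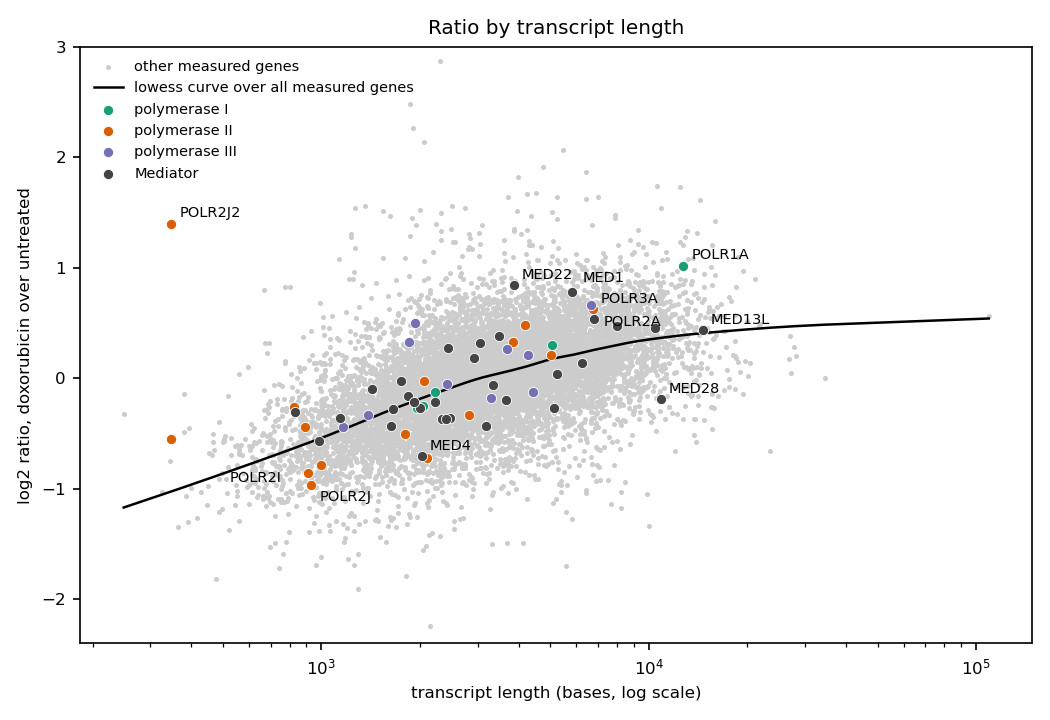
Log2 ratio of treated over untreated cells against transcript length on a log axis, with each measured gene as a point, members coloured by complex and the lowess curve over all measured genes. Members lie on both sides of the curve, with POLR1A at 1.02 and MED22 at 0.84 above it and POLR2J2, at 1.40, far above it. POLR2F at -0.72, MED4 at -0.71 and MED28 at -0.19 lie below it.

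Adjusted for transcript length, 4 of the 62 genes were higher (POLR1A, POLR2J2, POLR3D and MED22) and 0 lower, against 5% higher and 4.62% lower over all genes with a length. With coding length and GC content added, POLR2J2, MED22 and MED21 were higher and 0 lower, against 4.49% and 3.31%. With coding length alone, POLR1A, POLR2D, POLR2J2 and MED22 were higher and 0 lower, against 5.79% and 4.19%. The class medians lay closer together after adjustment for transcript length, at 0.02 for polymerase I, 0.15 for polymerase II, 0.07 for polymerase III and -0.004 (-0.15 to 0.20) for Mediator. The sign of the polymerase II median depends on POLR2J2, POLR2J3 and POLR2M. What part transcript length has in the ratios was not tested, and with 1 library for each condition a difference between the libraries and the treatment cannot be told apart.

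**Figure D4:**
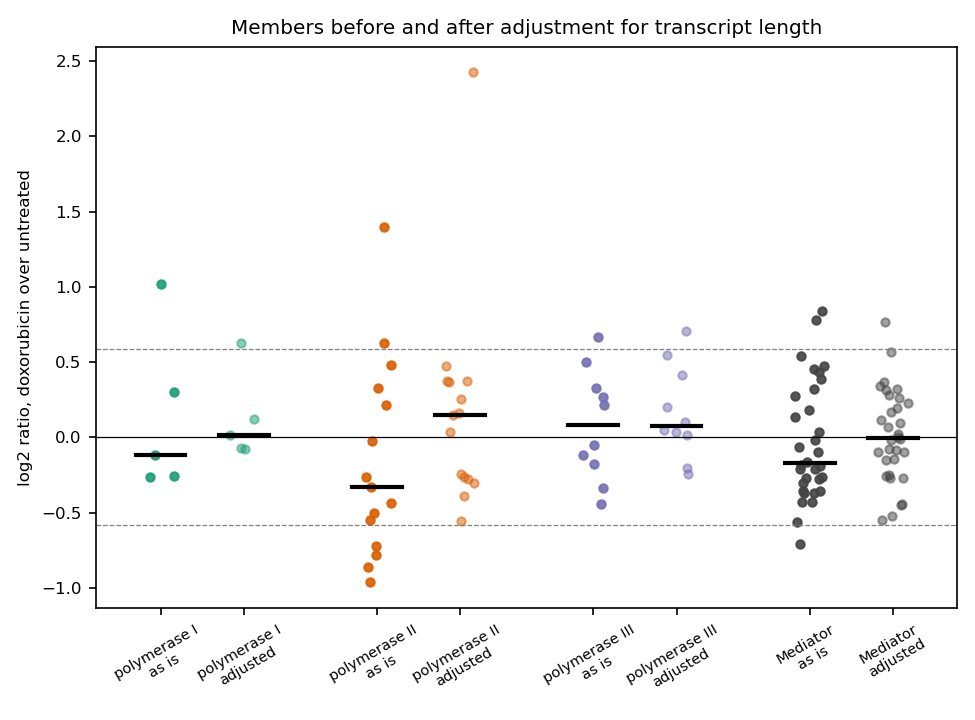
Log2 ratios of treated over untreated cells by complex, as they are and after adjustment for transcript length, with each point a measured gene, bars at the median and dashed lines at 1.5-fold. The median of polymerase II lies at -0.33 before and 0.15 after adjustment, and the highest adjusted point, at 2.43, is POLR2J2. The sign of the adjusted median depends on POLR2J2, POLR2J3 and POLR2M.

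The factors that work with these enzymes were mixed as well. The counts of each list stand against 7.26% higher and 9.57% lower over all 11244 measured genes. Of 34 measured polymerase II initiation factors, 1 was higher and 7 were lower, with a median of -0.19. TAF1, the largest subunit of TFIID, was 1.65-fold higher (1.56 to 1.75), while TAF10, a small subunit of it, was 2.37-fold lower (2.25 to 2.49) and kept a log2 ratio of -0.80 after adjustment for transcript length. Of 36 elongation factors, 3 were higher and 1 was lower. CDK12, which phosphorylates the polymerase II repeats, was 1.62-fold higher (1.54 to 1.71) and ELL3 was 2.16-fold lower (1.58 to 2.97) on 72 counts in treated and 100 in untreated cells. Of 14 Integrator genes 1 was higher, INTS2, at 1.57-fold (1.48 to 1.66), and 0 were lower. Of 18 polymerase III factors 1 was higher and 2 were lower. GTF3C1, the largest subunit of TFIIIC, was 1.58-fold higher (1.52 to 1.64), and GTF3C6, its smallest, was 1.68-fold lower (1.59 to 1.78). Of 17 other genes linked to polymerase II, among them assembly factors and repeat phosphatases, 0 passed the size rule. After adjustment for transcript length 2 initiation factors were lower and 0 higher, against 4.62% lower and 5% higher over all genes with a length. ELL3 was still lower at -1.001. TAF1 was then at 0.43, CDK12 at 0.39, INTS2 at 0.44, GTF3C1 at 0.39 and GTF3C6 at -0.19, all inside the limit.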

How the data were processed

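The authors deposited unscaled whole-number read counts for each gene symbol. HISAT2, featureCounts and the build hg19 are named, per the submitters' processing notes. The sources used here state no versions, annotation, strand setting or rule for multiply aligned reads, and these bear on genes with overlapping or near-identical neighbours.

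Effective library sizes were taken over the whole table with the TMM method of edgeR 4.0.16 in R 4.3.3, and counts were divided by them to give CPM. Log2 ratios of treated over untreated cells were taken after adding 0.5 to each count. Clopper-Pearson intervals at 95% were computed for ratios and shares, and order-statistic intervals at 95% for medians. They cover counting error or the spread over genes, and reads carry no molecular identifiers that would make them independent. A count of 0 would allow up to 3 counts, or 0.0584 CPM in the treated and 0.0911 in the untreated library. The size rule (at least 1.5-fold, an interval without 1, at least 100 counts in sum) replaced a test. It was tested on simulated counts with counting error only. That simulation held no variation between cultures and no relation with transcript length, so it does not show how the rule behaves where these are present.

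Transcript length (the longest transcript paired with RefSeq, or marked for a genome sequence error), coding length, GC content, exon overlap with protein-coding genes on either strand, and 50-base stretches sampled every 25 bases and found in other genes' transcripts came from GENCODE release 29, on another assembly than the counts. Lengths matched 11211 of 11244 measured genes. Adjustments used a lowess curve of span 0.3 on log2 length, or splines with 5 degrees of freedom for each of transcript length, coding length and GC content, fitted over all measured genes and centred to keep the median. Promoters came from RefSeq on GRCh38.p14 and matched 47 of 64 genes.

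The members, roles and lists were chosen with earlier results of these data known. Members past the size rule, the 2 highest and 2 lowest of each complex, catalytic subunits, MED14, MED1 and paralogs were named with full values, and the highest and lowest past the rule of each partner list. ZNRD1 and TWISTNB were named besides, as polymerase I subunits. Alternatives were DESeq2 1.42.0 size factors, total-count scaling, a count minimum of 1, a fold limit of 0.32 on the log2 scale, intervals at 99%, an added count of 5 and adjustments for length. The values of 1 member are counted in its class but not reported here. Adjustment for coding length alone was added after seeing the data.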

Additional observations from a re-analysis of the deposited data

How the results depend on the processing

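Under DESeq2 size factors, total-count scaling, a count minimum of 1, intervals at 99% and an added count of 5, all 11 calls among the 62 measured genes kept their direction and their side of the size rule, and total-count scaling added 1. The count minimum of 1 brought in MED14OS as another higher Mediator gene and gave 2521 calls over all genes, against 1892. Total-count scaling turned the balance of all calls towards higher ones, with 56.0% of them higher, against 43.4% with DESeq2 size factors. With a limit of 0.32 on the log2 scale in place of 1.5-fold, the table held 4710 calls, 2294 higher and 2416 lower. Polymerase II then had 4 members higher and 8 lower, polymerase III 3 and 2, and Mediator 7 and 8. Adjusted for transcript length, the table held 1078 calls, 518 of them lower, polymerase II had 1 member higher and 0 lower and Mediator 1 and 0. Of the 11 calls 3 kept theirs and 8 did not. Adjusted for GC content and both lengths, the table held 872 calls, 502 higher and 370 lower. Polymerase I then had 0 members higher, polymerase II 1 and 0 lower, polymerase III 0, and Mediator 0 lower. POLR2K turned to 0.084 there, and to 0.0089 with coding length alone. Adjusted for coding length, the table held 1117 calls, 469 lower. Polymerase II then had 0 members lower, polymerase III 0 higher, and Mediator 1 higher and 0 lower. The cause of these shifts was not tested. Per base of transcript length, the paralog shares in treated and untreated cells were 17.0% and 18.9% for CDK19, 45.5% and 45.8% for MED13L, 18.9% and 16.2% for POLR3G, 12.7% and 2.71% for POLR2J2, 54.6% and 47.4% for POLR2J3, and 0.241% and 0.164% for MED12L. No paired analysis was possible because each condition has 1 library, and for the same reason no library could be left out. Without replicates, differences between cultures cannot be set against these ratios, and genes near 100 counts such as POLR2J2 and MED31 are limited by depth.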
